A study of Mus musculus with 12 samples.

Results

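A set of 10 genes of hemoglobin and heme-iron handling is described here across wounds of diabetic mice under 3 dressings. They are the adult globin genes Hba-a1, Hba-a2, Hbb-bs and Hbb-bt, the erythroid heme synthesis gene Alas2, the heme breakdown genes Hmox1 and Blvrb, the heme transporter gene Slc48a1, the iron exporter gene Slc40a1 and the ferritin heavy chain gene Fth1. The members were a list chosen by function with earlier results of these wounds in view, and they were found in the count tables by matching each Ensembl identifier to its symbol. All 10 were found among 54232 listed identifiers, and all 10 passed the filter on low counts. Because results were known when the list was made, differences of the members between groups are given as values. The counts of members past a threshold describe the list and are not evidence for it.

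The libraries came from dorsal skin of male C57BLKS/J mice with the genotype Lepr (db/db), a loss of the leptin receptor that causes obesity and diabetes. All mice were labelled 12.5 weeks old, all carried a full-thickness punch wound of 6 mm, and all wounds were collected on day 10. In the TD group (5 libraries) the wound was covered by Tegaderm film alone, in the strain group (4 libraries) by a patch designed to stretch the wound by about 30%, and in the no-strain group (3 libraries) by a patch without stretch. The labels include no unwounded skin and no mice with an intact leptin receptor, and they do not say whether any wounds shared a mouse, so p-values measure the spread between these libraries.

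Hemoglobin is a tetramer of alpha and beta globin chains, each holding a heme, and it carries oxygen in red cells. Developing red cells make heme with their own ALA synthase, ALAS2, while other cells use ALAS1. When red cells die or leak in tissue, as they do in a wound bed, macrophages take up the hemoglobin or the whole cell, HRG1 (Slc48a1) moves heme out of the lysosome, and heme oxygenase 1 (Hmox1) opens the ring to give iron, carbon monoxide and biliverdin. Biliverdin is reduced to bilirubin, ferritin stores the iron, and ferroportin (Slc40a1) exports it. Globin transcripts in adult tissue mostly travel in the youngest circulating red cells, the reticulocytes.

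Total counts ran from 20354677 to 25059371 per library, and 18618 genes were tested. Library scaling factors lay between 0.958 and 1.03. Over all tested genes the median log2 fold change was 0.01 (strain against no strain), 0.02 (strain against TD) and 0.01 (no strain against TD). Sample titles carry numbers up to 6 in TD and of 7 or more in the patch groups, so any order they stand for cannot be told apart from the use of a patch. Titles also end in L or R, a letter whose meaning is not given. Most TD wounds carried R and most wounds of each patch group L, so the letter is partly confounded with the use of a patch.

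The sequences of the globin genes are shown first, because they set which counts can be assigned to a single gene. The coding sequences of Hba-a1 and Hba-a2 in the GENCODE M21 transcripts are 426 bases long and differ at 1 position, C381T, counted from the first base of the start codon with the Hba-a1 base first. Those of Hbb-bs and Hbb-bt are 441 bases long and also differ at 1 position, C417T, with the Hbb-bs base first. The coding stretches around the differing base follow, 5′ to 3′ on the coding strand, with that base in capitals.
Hba-a1: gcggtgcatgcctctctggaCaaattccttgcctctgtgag
Hba-a2: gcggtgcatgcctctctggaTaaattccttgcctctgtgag
Hbb-bs: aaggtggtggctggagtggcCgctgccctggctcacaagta
Hbb-bt: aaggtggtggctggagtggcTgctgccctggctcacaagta
On GRCm38 these stretches lie in coding exons, at chr11:32284323-32284363 for Hba-a1 and chr11:32297140-32297180 for Hba-a2 on the plus strand, and at chr7:103826672-103826712 for Hbb-bs and chr7:103812663-103812703 for Hbb-bt on the minus strand. Within the coding sequence the alpha genes share an identical run of 380 bases and the beta genes one of 416 bases. The 3′ UTRs of the alpha pair had 82.8% identity when aligned, with 0 mismatches and 16 gap bases, whereas those of the beta pair had 70.1% identity with 36 mismatches. How the authors' counting treated reads that match both copies is not given in the sources used here, so the split between the genes of a pair is uncertain and the pair sums are the firmer values.

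The promoters of the globins and of Alas2 are shown because their transcripts varied together across the libraries. RefSeq (GRCm38.p6) had promoter entries for 7 of the 10 members. The 120 bases before the annotated start follow, 5′ to 3′ on the gene's strand. Capitals mark 3 motifs on either strand: GATAA, the core bound by GATA factors such as GATA1, CACCC, bound by KLF1 and related factors, and CCAAT, the box of many globin promoters.
Hba-a1: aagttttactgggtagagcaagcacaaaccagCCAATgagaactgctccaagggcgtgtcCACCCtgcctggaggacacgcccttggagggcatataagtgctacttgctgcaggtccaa
Hba-a2: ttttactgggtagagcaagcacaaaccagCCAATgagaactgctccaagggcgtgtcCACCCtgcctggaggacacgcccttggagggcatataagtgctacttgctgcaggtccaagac
Hbb-bs: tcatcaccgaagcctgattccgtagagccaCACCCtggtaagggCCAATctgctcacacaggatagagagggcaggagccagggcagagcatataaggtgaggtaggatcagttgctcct
Hbb-bt: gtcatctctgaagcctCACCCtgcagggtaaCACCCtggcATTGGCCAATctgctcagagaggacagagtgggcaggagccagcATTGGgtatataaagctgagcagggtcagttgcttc
Alas2: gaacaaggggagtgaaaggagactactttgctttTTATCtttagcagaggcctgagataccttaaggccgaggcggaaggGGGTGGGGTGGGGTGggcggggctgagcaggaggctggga
The windows are chr11:32283552-32283671 (Hba-a1) and chr11:32296372-32296491 (Hba-a2) on the plus strand, chr7:103827929-103828048 (Hbb-bs) and chr7:103813924-103814043 (Hbb-bt) on the minus strand, and chrX:150547297-150547416 (Alas2) on the plus strand. Over the 250 bases before the start, each of these 5 genes held GATAA 1 time and CACCC at least 1 time, and the 4 globins also held CCAAT. The motifs were not particular to these 5. Fth1 held GATAA and CACCC before its annotated start at chr19:9980600 and CCAAT before that at chr19:9982646. Blvrb held CACCC before both of its annotated starts. Over all 32851 promoter entries the same search found GATAA in 22.6%, CACCC in 52.0% and CCAAT in 33.8%, so such short motifs are common. The antioxidant response motif TGACNNNGC, which NRF2 and BACH1 bind, was in 10.2% of entries and among these 5 in Hbb-bt. Over the same 250 bases the alpha promoters were 97.6% identical and the beta promoters 68.4%.

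Alas2, Slc40a1 and Fth1 carry an iron-responsive element, a hairpin in the 5′ UTR through which iron regulatory proteins hold back translation when iron is low. It is shown because this control acts on protein output and is not read by a transcript count. The elements were found in the GENCODE M21 transcripts as a CAGTGN loop (capitals) closed by 5 base pairs, with G-T pairs allowed, after a bulged C, and that of Ftl1, the ferritin light chain gene, is set beside them.
Alas2: ttggttcgtcctCAGTGCagggcaacagg
Slc40a1: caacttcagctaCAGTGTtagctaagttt
Fth1: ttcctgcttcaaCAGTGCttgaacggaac
Ftl1: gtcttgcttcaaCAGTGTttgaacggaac
Their positions on GRCm38 are chrX:150547458-150552149 on the plus strand for Alas2, where the element spans an intron, chr1:45925465-45925493 on the minus strand for Slc40a1, chr19:9982732-9982760 on the plus strand for Fth1 and chr7:45459779-45459807 on the minus strand for Ftl1. By the same search, 31 of 20899 genes (0.148%) had such an element in the 5′ UTR.

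Globin transcripts were present in every wound and were lowest under the no-strain patch. Levels are given as CPM, counts scaled to a common library total after a trimmed-mean correction for composition. The sum of the 4 globins was 128, 105, 129, 76.8 and 94.0 CPM in TD, 68.3, 113, 166 and 83.4 CPM under strain, and 46.1, 47.6 and 33.4 CPM under no strain. All 3 no-strain wounds lay below all 9 others, whereas the strain wounds spread over and beyond the TD range, with the third strain wound the highest of all 12 and the first strain wound below every TD wound. The means were 107 ± 22.5 CPM (SD, n = 5) in TD, 108 ± 43.0 CPM (SD, n = 4) in strain wounds and 42.4 ± 7.79 CPM (SD, n = 3) under no strain. As a share of all counts the sum averaged 0.0108% in TD and under strain and 0.00412% under no strain. In bulk tissue, fewer red cells and less globin RNA per red cell cannot be told apart.

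Hba-a1, the more abundant alpha globin gene, had 37.8, 28.3, 36.0, 27.0 and 25.6 CPM in TD, 18.1, 30.5, 44.5 and 23.0 CPM under strain and 12.7, 12.5 and 9.85 CPM under no strain. Hba-a2, its close copy, had 11.0, 8.38, 11.0, 5.45 and 8.02 CPM in TD, 6.31, 10.5, 14.6 and 7.91 CPM under strain and 3.65, 3.86 and 3.07 CPM under no strain. For both alpha genes the no-strain wounds lay below all others, and the third strain wound was the highest. Hba-a1 gave 78.1% ± 2.89 (SD, n = 5) of the pair's counts in TD, 74.6% ± 0.520 (SD, n = 4) under strain and 76.8% ± 0.792 (SD, n = 3) under no strain. One TD wound, the fourth, stood at 83.2% where the other TD wounds lay between 76.1% and 77.5%.

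**Figure D1:**
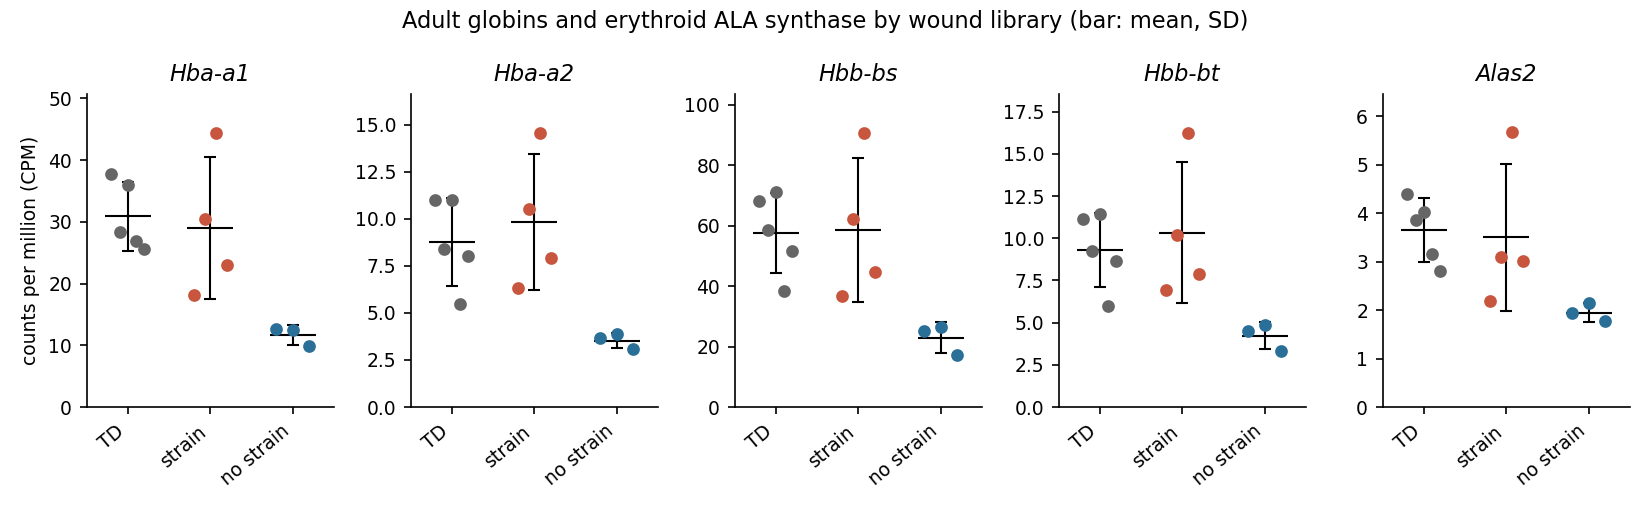
CPM (vertical axes, linear, from 0) of the 4 adult globin genes and Alas2 in each wound library (points), with the mean and SD of each group (bars; TD n = 5, strain n = 4, no strain n = 3). In all 5 panels the 3 no-strain wounds sit below every TD and strain wound, and the highest point is the third strain wound.

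Hbb-bs, the major adult beta globin gene here, had 68.1, 58.6, 71.0, 38.4 and 51.7 CPM in TD, 36.9, 62.1, 90.6 and 44.5 CPM under strain and 25.3, 26.4 and 17.2 CPM under no strain. Hbb-bt, the second adult beta gene, had 11.2, 9.24, 11.4, 5.98 and 8.68 CPM in TD, 6.96, 10.2, 16.2 and 7.91 CPM under strain and 4.50, 4.85 and 3.35 CPM under no strain. As for the alpha genes, the no-strain wounds lay below all others and the third strain wound was the highest. Hbb-bs gave 86.1% ± 0.354 (SD, n = 5) of the beta pair's counts in TD, 84.9% ± 0.743 (SD, n = 4) under strain and 84.3% ± 0.611 (SD, n = 3) under no strain. Per kilobase of transcript, beta globin stood 1.74 ± 0.190 (SD, n = 5) times above alpha globin in TD, 1.81 ± 0.0520 (SD, n = 4) times under strain and 1.83 ± 0.175 (SD, n = 3) times under no strain. The beta to alpha ratio therefore overlapped between all groups while the total differed.

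The 4 globins varied together from wound to wound. Across the 12 libraries the Pearson correlation of log2 CPM between globin genes was 0.951 to 0.991, and 0.905 to 0.989 after group means were removed. These correlations describe the libraries: the genes of a pair may share reads, and all 4 share library depth. The spread between wounds of 1 group was far above counting noise, with a coefficient of variation of the globin sum of 22.1% in TD, 41.8% under strain and 19.5% under no strain against 2.00%, 2.16% and 3.29% from counting alone.

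Alas2, which makes the first committed step of heme synthesis in red cell precursors, was scarce and varied like the globins. It had 4.40, 3.86, 4.03, 3.15 and 2.81 CPM in TD, 2.19, 3.11, 5.68 and 3.02 CPM under strain and 1.94, 2.15 and 1.77 CPM under no strain. The no-strain wounds lay below all others, although the lowest strain wound lay just above the highest no-strain wound, and these values rest on 38 to 146 counts per library. Its correlation with the mean of the globins was 0.937 over 12 libraries and 0.894 within groups. Relative to globin, Alas2 stood at 3.44, 3.69, 3.11, 4.10 and 2.99 per 100 globin CPM in TD, 3.20, 2.74, 3.43 and 3.62 under strain and 4.20, 4.51 and 5.29 under no strain. By this ratio the no-strain wounds were the highest, since Alas2 differed less between groups than globin did. The lowest no-strain ratio, 4.20, lay just above the highest TD ratio, 4.10. Counting alone gives Alas2 a coefficient of variation of 15.2% under no strain, so this separation is within counting noise. Alas2 shares 311 exon bases with Apex2 on the opposite strand, and the strand setting of the counting is not given in the sources used here. Apex2, a DNA repair gene, had 10.3 ± 1.16 CPM (SD, n = 5) in TD, 9.74 ± 0.696 CPM (SD, n = 4) in strain wounds and 9.40 ± 0.956 CPM (SD, n = 3) under no strain, and the groups overlapped.

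Several defining transcripts of red cells and their precursors had few or no counts. Slc4a1 (the anion exchanger band 3) had 1 to 17 counts per library, Epb42 0 to 8 and Rhag 0 to 4, and Icam4 had 0 counts in all 12 libraries. Of the regulators of red cell genes, Klf1 had 1 to 15 counts and Gata1 5 to 21. Klf1 averaged 0.496 ± 0.147, 0.384 ± 0.165 and 0.20 ± 0.20 CPM (SD) in TD, strain and no-strain wounds. Gata1 averaged 0.636 ± 0.167, 0.404 ± 0.113 and 0.315 ± 0.0876 CPM in the same order. Its no-strain wounds lay below all TD wounds, and neither gene was called in any comparison. Tal1, a further regulator, averaged 6.05 ± 0.594, 6.55 ± 0.736 and 6.07 ± 0.643 CPM. Nfe2, called higher under no strain, is given below. Embryonic globins Hba-x and Hbb-y were at 0 counts in all 12 libraries. Hbb-bh1 totalled 47 counts over the 5 TD libraries, 4 over the 4 strain libraries and 0 over the 3 no-strain libraries. The first TD wound alone held 24 of its counts. A library count of 0 allows at most 0.147 CPM at the shallowest depth, a limit that covers counting error only. The summed level of the whole red cell list, which also holds genes of muscle and other cells, ran from 359 to 413 CPM in TD, 329 to 394 CPM under strain and 369.8 to 403 CPM under no strain. These ranges overlapped between all groups, whereas the globin sum under no strain lay below that of both other groups. Within the list Bnip3l alone averaged 150 CPM in TD, 169 CPM under strain and 175 CPM under no strain. The overlap of the summed list therefore does not show whether red cell transcripts followed globin.

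The heme breakdown genes Hmox1 and Blvrb ran the other way, with the lowest mean in TD and the highest under the no-strain patch. Hmox1, the inducible heme oxygenase, had 229.7, 280.2, 193, 274 and 341 CPM in TD, 368, 371, 245 and 483 CPM under strain and 526, 391 and 511 CPM under no strain. Every no-strain wound lay above every TD wound, and 3 of the 4 strain wounds did too, the exception being the third. Its group means were 264 ± 55.8 CPM (SD, n = 5), 367 ± 97.3 CPM (SD, n = 4) and 476 ± 73.8 CPM (SD, n = 3) for TD, strain and no strain. Set against Hmox2, the constitutive isoenzyme, per kilobase, Hmox1 stood at 5.94 ± 0.895 (SD, n = 5) times its level in TD, 7.80 ± 2.03 (SD, n = 4) times under strain and 9.07 ± 1.04 (SD, n = 3) times under no strain. Strain and no strain overlapped in this ratio, while TD and no strain did not.

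Blvrb, biliverdin reductase B, had 41.8, 51.4, 41.7, 41.8 and 56.5 CPM in TD, 46.6, 69.6, 59.8 and 71.7 CPM under strain and 78.5, 66.3 and 73.0 CPM under no strain. The no-strain wounds lay above all TD wounds, and the strain wounds overlapped both groups. Blvra, the other biliverdin reductase gene, averaged 37.5 ± 5.16, 41.8 ± 3.10 and 44.1 ± 8.18 CPM (SD) in TD, strain and no-strain wounds, and its groups overlapped. Slc48a1, the lysosomal heme transporter HRG1, had 128, 129, 145, 146 and 145 CPM in TD, 133, 117, 112 and 140.2 CPM under strain and 141, 139.7 and 164 CPM under no strain. Its groups overlapped, with means of 139 ± 9.31 CPM (SD, n = 5), 125 ± 13.4 CPM (SD, n = 4) and 148 ± 13.7 CPM (SD, n = 3), and fitted folds of 0.904 (strain) and 1.07 (no strain) against TD. It shares 29 exon bases with Hdac7 on the opposite strand.

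**Figure D2:**
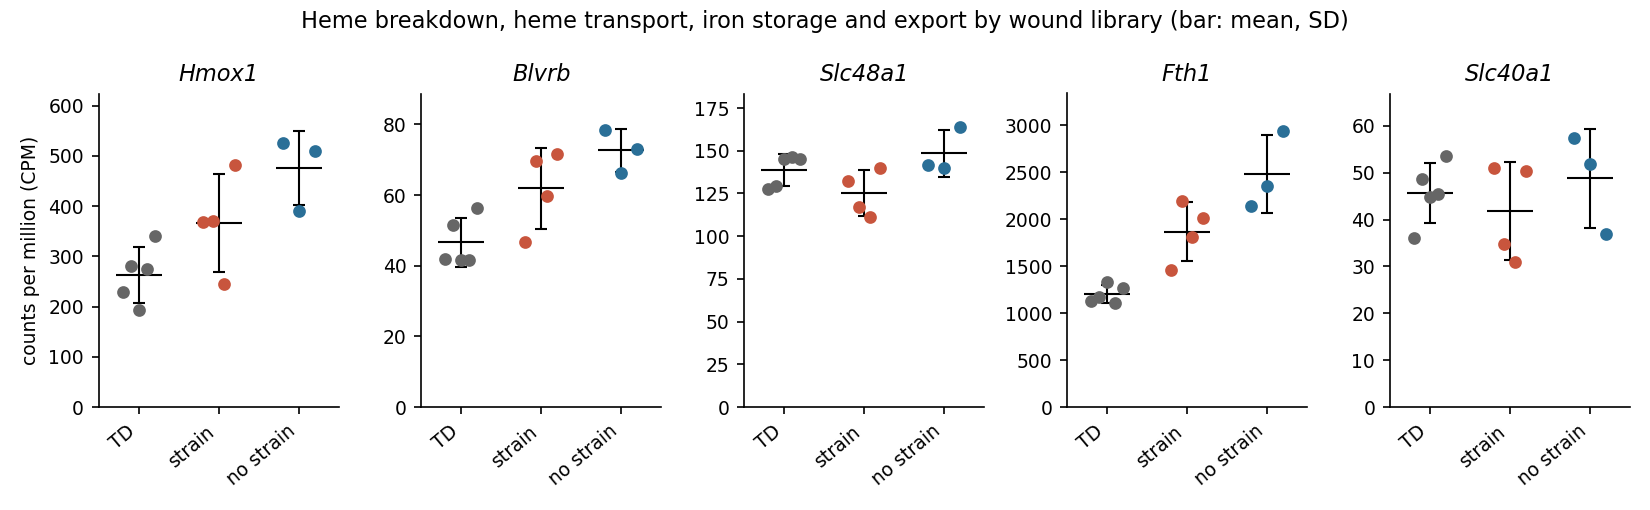
CPM (vertical axes, linear, from 0) of Hmox1, Blvrb, Slc48a1, Fth1 and Slc40a1 in each wound library (points), with the mean and SD of each group (bars; TD n = 5, strain n = 4, no strain n = 3). The means of Hmox1, Blvrb and Fth1 step up from TD through strain to no strain, with no overlap between TD and no strain, while the groups overlap for Slc48a1 and Slc40a1.

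Fth1, the ferritin subunit that oxidises iron for storage, was the most abundant member. It had 1129, 1170, 1326, 1103 and 1271 CPM in TD, 1462, 2188, 1812 and 2007 CPM under strain and 2139, 2355 and 2941 CPM under no strain. Both patch groups lay wholly above TD, and the second strain wound overlapped the no-strain range. Relative to its partner Ftl1 per kilobase, Fth1 stood at a ratio of 1.37 ± 0.209 (SD, n = 5) in TD, 1.79 ± 0.255 (SD, n = 4) under strain and 1.87 ± 0.207 (SD, n = 3) under no strain. Ftl1 itself had 931 ± 155 CPM (SD, n = 5) in TD, 1094 ± 185 CPM (SD, n = 4) in strain wounds and 1387 ± 229 CPM (SD, n = 3) under no strain.

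Slc40a1, the exporter ferroportin, had 36.1, 48.7, 44.7, 45.4 and 53.6 CPM in TD, 51.0, 34.8, 30.9 and 50.4 CPM under strain and 57.5, 51.9 and 36.9 CPM under no strain. Values of all 3 groups overlapped, and the members that store and export iron thus differed in pattern, with Fth1 separated from TD and Slc40a1 not. Per kilobase of transcript in TD, the order of levels was Fth1 at 1291, Hmox1 at 168, Hbb-bs at 91.7, Slc48a1 at 54.7, Blvrb at 45.4, Hba-a1 at 44.2, Hba-a2 at 15.8, Slc40a1 at 13.6, Hbb-bt at 13.2 and Alas2 at 1.79 CPM. Slc48a1, Blvrb and Hba-a1 overlapped as neighbours in this order, as did Hba-a2, Slc40a1 and Hbb-bt.

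The comparison of strain with no strain asks about the imposed stretch, since both groups wore a patch. The 4 globins were higher under strain, with fitted log2 fold changes of 1.32 (standard error, SE, 0.274) for Hba-a1, 1.48 (SE 0.307) for Hba-a2, 1.35 (SE 0.311) for Hbb-bs and 1.29 (SE 0.309) for Hbb-bt. Alas2 stood at 0.85 (SE 0.294). The other members were lower or near equal, at -0.38 (SE 0.226) for Hmox1, -0.23 (SE 0.153) for Blvrb, -0.22 (SE 0.205) for Slc40a1, -0.41 (SE 0.149) for Fth1 and -0.24 (SE 0.0952) for Slc48a1. In the edgeR quasi-likelihood test 0 of 10 members and 0.0% of all genes tested had an adjusted p under 0.05. At an unadjusted p under 0.05 there were 7 members and 1045 genes (5.61%), and DESeq2 called 4 members, the globins, and 33 genes. For 5 members, the globins and Alas2, all strain wounds lay above all no-strain wounds, a pattern held by 2.85% of all genes. The list was chosen with such results known, and nothing is read from these counts.

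**Figure D3:**
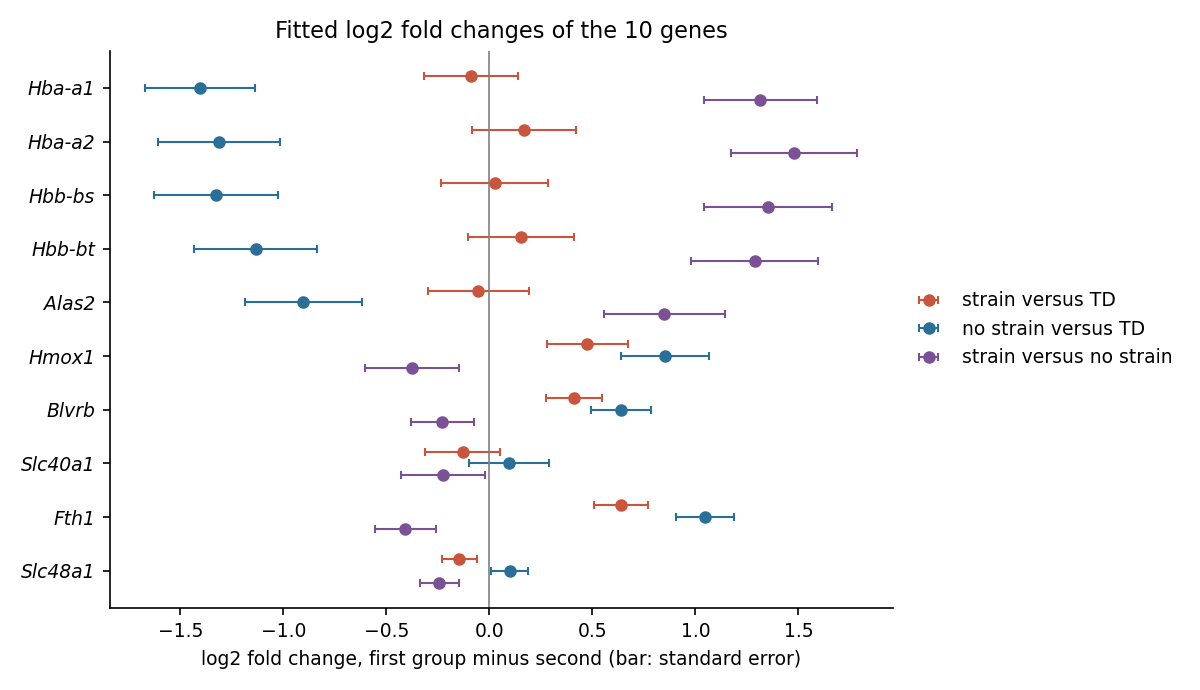
Log2 fold change of each of the 10 genes (horizontal axis, first group minus second; points are fitted values, bars standard errors) for strain versus TD (red), no strain versus TD (blue) and strain versus no strain (purple). The globins lie near 0 for strain versus TD and beyond 1 log2 unit, in opposite directions, for the comparisons that involve the no-strain group; both comparisons with TD share its 5 libraries.

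Against TD, the strain wounds had globin means near those of TD, with a wide spread. Fitted log2 fold changes were -0.09 (SE 0.229) for Hba-a1, 0.17 (SE 0.252) for Hba-a2, 0.03 (SE 0.261) for Hbb-bs, 0.15 (SE 0.257) for Hbb-bt and -0.05 (SE 0.246) for Alas2. Iron and heme breakdown genes stood at 0.64 (SE 0.131) for Fth1, 0.48 (SE 0.199) for Hmox1, 0.41 (SE 0.135) for Blvrb, -0.13 (SE 0.180) for Slc40a1 and -0.15 (SE 0.0841) for Slc48a1. One member, Fth1, was called higher in edgeR, where 12.6% of all genes were called (6.2% higher). Without the third strain wound Hmox1 was called as well, and Blvrb without the first strain wound or the fifth TD wound. Fth1 was no longer called with the title letter as a covariate. With the mean of skeletal muscle markers as a covariate the fitted values moved to 0.60 to 0.80 for the globins, to 0.71 for Alas2, to -0.06 for Hmox1 and to -0.77 for Slc40a1, and Fth1 was no longer called. That covariate left 1 of 2349 genes called in this comparison. It ran from 8.34 to 9.56 log2 CPM in TD, from 7.09 to 7.98 under strain and from 7.61 to 8.57 under no strain. Since TD and strain did not overlap in it, muscle content and group cannot be told apart in that fit.

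Against TD, the no-strain wounds held less globin and more Hmox1, Blvrb and Fth1. The fitted log2 fold changes were -1.41 (SE 0.266) for Hba-a1, -1.31 (SE 0.296) for Hba-a2, -1.33 (SE 0.301) for Hbb-bs, -1.13 (SE 0.298) for Hbb-bt and -0.90 (SE 0.283) for Alas2. In the other direction were Fth1 at 1.05 (SE 0.140), Hmox1 at 0.85 (SE 0.213) and Blvrb at 0.64 (SE 0.145), while Slc40a1 at 0.09 (SE 0.195) and Slc48a1 at 0.10 (SE 0.0911) stood near 0. By edgeR 8 of 10 members were called, 5 lower and 3 higher, where 17.8% of all genes were called (9.35% higher and 8.4% lower). The same 8 members had wounds that did not overlap, as did 26.7% of all genes. As above, these counts are a description, since the members were chosen with them known. Fth1 was called under all 20 alternatives, whereas 4 members (Hba-a1, Hba-a2, Hbb-bs and Fth1) were called without the first no-strain wound and 3 (Hba-a1, Blvrb and Fth1) without the third. With the muscle covariate Hba-a1 moved to -0.96, Alas2 to -0.43 and Slc40a1, turning sign, to -0.25, and 1 member was called. The call of Alas2 held in 7 of 19 alternatives.

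The globin sum and Hmox1 ran in opposite directions across wounds. Over the 12 libraries the correlation of the mean log2 CPM of the globins with Hmox1 was -0.77, and within groups it was -0.71. Within TD the pair of wounds with the most globin, the first and the third, had the least Hmox1, and within strain the third wound had the most globin and the least Hmox1. With Slc48a1 the globin mean correlated at -0.72 (within groups -0.76), and with Slc40a1 at -0.46 (within groups -0.51). With Fth1 (-0.56) and Blvrb (-0.48) it turned to 0.18 and 0.11 within groups, so those relations rested on the difference between groups. These are descriptions over 12 libraries that share 3 group means and a common scaling.

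**Figure D4:**
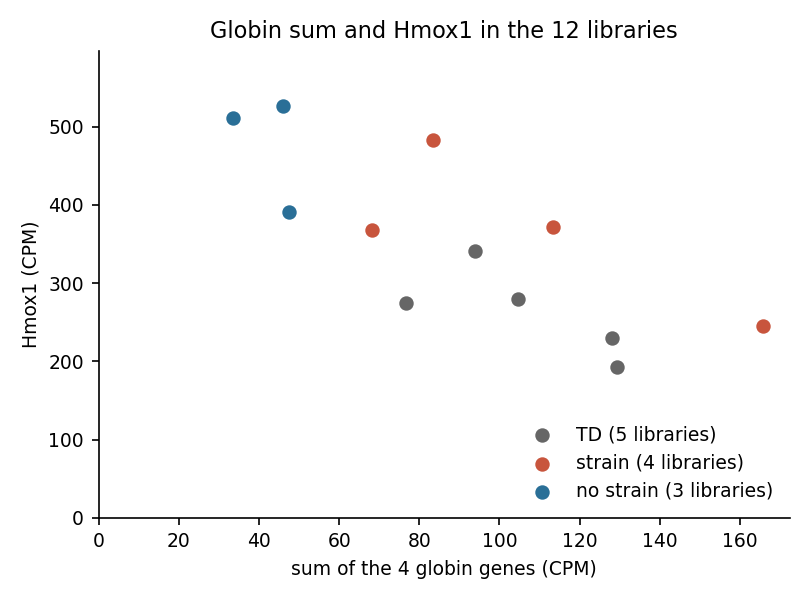
Sum of the 4 globin genes (horizontal axis, CPM) against Hmox1 (vertical axis, CPM) in 12 wound libraries; grey points are TD, red strain and blue no strain, and both axes start at 0. The no-strain wounds lie at the upper left, with 33.4 to 47.6 CPM of globin and 391 to 526 CPM of Hmox1, and the third strain wound lies at the far right with 166 CPM of globin.

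The genes whose levels were most like the mean of the globins over the 12 libraries, members left out, were Aknad1 (r = 0.915), Gm20342 (0.904), 1300014J16Rik (0.876), Gpbp1l1 (0.873) and Olfr173 (0.872). The globins were more like each other than any of these. Those most like Hmox1 were Exoc5 (0.937), Aass (0.928), Nup93 (0.925), Tlnrd1 (0.922) and Gnb1 (0.920). Differences between groups varied in size among these 10. Aass averaged 3.15 ± 0.874 CPM (SD, n = 3) under no strain and 1.38 ± 0.387 CPM (SD, n = 5) in TD, and Aknad1 2.98 ± 0.429 and 5.24 ± 0.466 CPM. Gpbp1l1 averaged 44.3 ± 1.35 CPM (SD, n = 3) under no strain and 51.0 ± 3.46 CPM (SD, n = 5) in TD, and Exoc5 86.3 ± 1.93 and 77.1 ± 3.38 CPM.

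Other genes of these pathways were taken from 7 lists of red cell, heme, iron and antioxidant genes that leave the members out, of which 105 genes could be tested. Under strain 14 were higher and 6 lower than TD, and under no strain 27 were higher and 8 lower, in the edgeR test at an adjusted p under 0.05. This was 19.0% and 33.3% of the tested genes, where 12.6% and 17.8% of all genes were called. The count for strain dropped to 9 without the second strain wound and to 0 with the muscle covariate. That for no strain dropped to 23 without the first and 18 without the third no-strain wound, and to 12 with the muscle covariate. Between strain and no strain 0 of 105 were called, with 14 at an unadjusted p under 0.05. Among the closest there was Txnrd1, at 175 ± 16.0 CPM (SD, n = 4) for strain and 228 ± 12.0 CPM (SD, n = 3) for no strain, with an edgeR adjusted p of 0.872.

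Among other globins and red cell genes, calls went in both directions. Of 3 other globins tested, Mb (myoglobin, the oxygen store of muscle) was lower under strain than in TD, by -1.54 on the log2 scale (edgeR adjusted p = 0.0218), and 0 were called under no strain. Of 18 red cell genes, 1 rose and 3 fell under strain against TD. The called share was 22.2% under strain and again under no strain, where 12.6% and 17.8% of all genes were called. Tent5c, a poly(A) polymerase, rose by 0.65, while the membrane skeleton genes Ank1 (-1.16) and Sptb (-1.30) and the glycolytic side enzyme gene Bpgm (-0.53) fell. Ank1 and Sptb are also expressed in skeletal muscle, whose markers fell in the same comparison. With the muscle covariate Ank1 moved to 0.01, but TD and strain did not overlap in that covariate. Muscle content and group cannot be told apart in that fit, and the part of muscle in these genes was not tested. Under no strain Tent5c (0.92) and the transcription factor gene Nfe2 (1.08) rose, and the adducin gene Add2 (-1.40) was among 2 that fell. The call of Nfe2 held in 9 and that of Add2 in 7 of 19 alternatives, and that of Bpgm under strain in 7 of 20.

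Of 16 heme synthesis genes, 15 were not called under strain and 13 were not called under no strain. The called shares were 6.25% and 18.75%, where 12.6% and 17.8% of all genes were called. Tmem14c, a mitochondrial porphyrinogen transporter, was higher under strain (84.9 ± 1.58 CPM, SD, n = 4) and under no strain (86.9 ± 3.61 CPM, SD, n = 3) than in TD (70.8 ± 1.63 CPM, SD, n = 5). Alas1, the ALA synthase of non-erythroid cells, rose by 0.53 under no strain (edgeR adjusted p = 0.0188), opposite to the fitted value of its erythroid counterpart Alas2. Slc25a38, a mitochondrial glycine carrier for heme synthesis, fell by 0.30 on the log2 scale under no strain, a call held in 9 of 20 alternatives.

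Among 19 genes of heme breakdown and transport, 2 rose in each comparison with TD. This was 10.5%, below the 12.6% (strain) and 17.8% (no strain) of all genes called. Hpx, hemopexin, which binds free heme, had 3.66, 1.77, 0.638, 0.525 and 2.85 CPM in TD, 8.10, 5.54, 6.89 and 6.90 CPM under strain and 10.9, 11.0 and 8.78 CPM under no strain. All patch wounds lay above all TD wounds, with log2 fold changes of 1.86 (SE 0.449, edgeR adjusted p = 0.0243) and 2.44 (SE 0.472, edgeR adjusted p = 0.00754). Spic, a heme-induced transcription factor of iron-recycling macrophages, rose by 1.61 under strain and 1.90 under no strain from 1.03 ± 0.342 CPM (SD, n = 5) in TD. Cd163, the macrophage receptor for haptoglobin-bound hemoglobin, was not called (edgeR adjusted p = 0.0659 for no strain against TD). It had 182 ± 98.6 CPM (SD, n = 5) in TD, 101 ± 67.7 CPM (SD, n = 4) in strain wounds and 57.2 ± 28.8 CPM (SD, n = 3) under no strain. All no-strain wounds lay below all TD wounds, at 38.0 to 90.3 against 102 to 304 CPM. Of other markers of iron-recycling macrophages, Vsig4 stood at -0.897 under strain, not called. Under no strain Vsig4 was called lower, at -1.67 (edgeR adjusted p = 0.027). Timd4, at -0.673 and -0.785, was not called, and Clec4f, with 0 to 6 counts per library, was not tested.

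**Figure D5:**
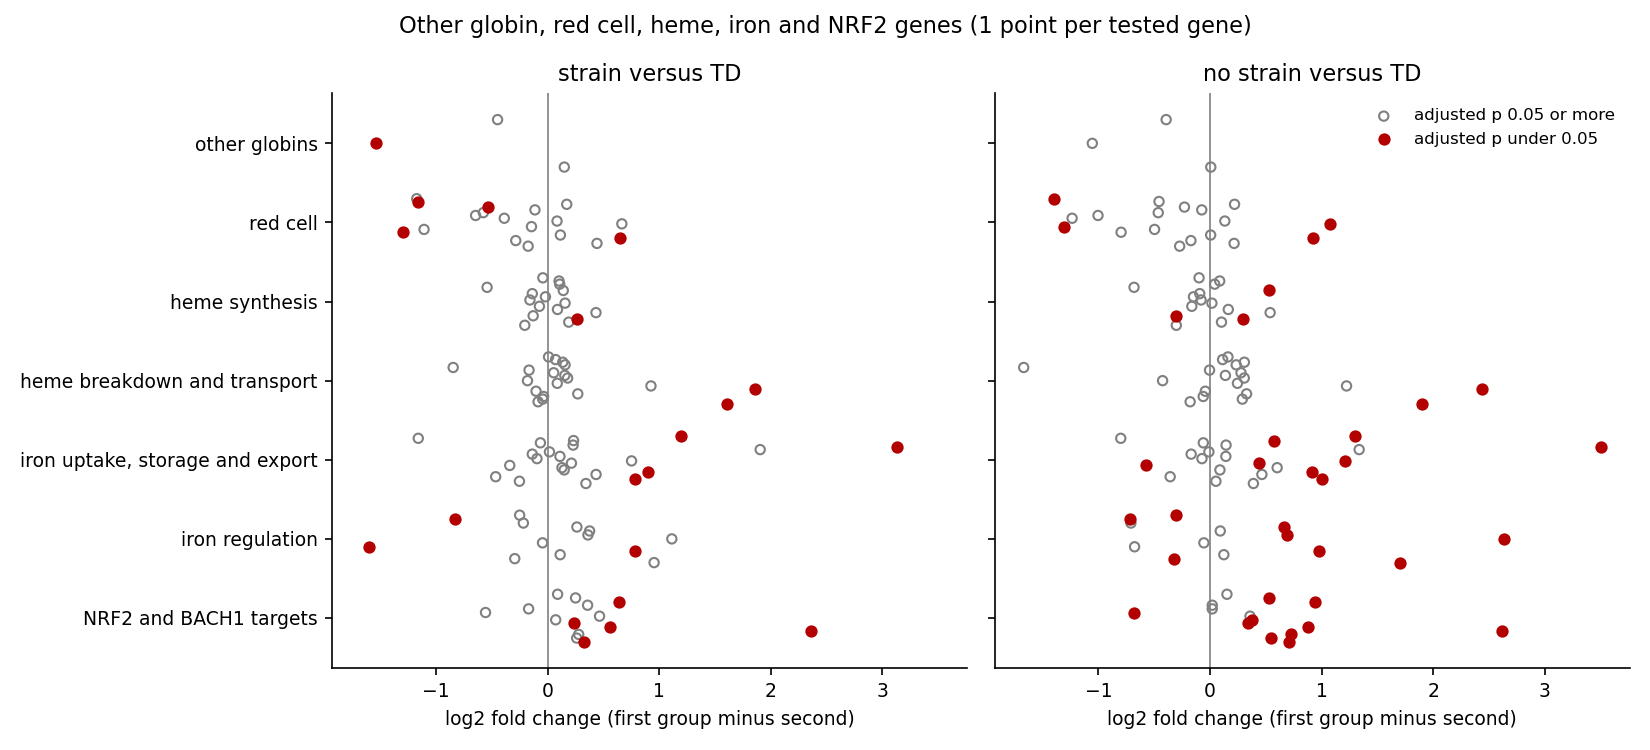
Log2 fold change against TD (horizontal axes) of 105 tested genes in 7 lists (rows), 1 point per gene, for strain (left) and no strain (right); filled red points had an adjusted p under 0.05 in edgeR and open grey points did not, and vertical position within a row has no meaning. Filled points on the right side outnumber those on the left, 14 to 6 under strain and 27 to 8 under no strain, and both panels share the 5 TD libraries.

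Of 22 genes of iron uptake, storage and export, 4 rose and 0 fell under strain, and 7 rose and 1 fell under no strain. This was 18.2% and 36.4%, where 12.6% and 17.8% of all genes were called. Cp (ceruloplasmin, the ferroxidase that works with ferroportin) rose by 1.19 under strain and 1.30 under no strain. Lcn2, the siderophore-binding lipocalin abundant in neutrophils, rose by 3.14 and 3.50, and under strain its wounds overlapped TD. The ferrireductase genes Steap1 (0.90 under strain, called in 7 of 20 alternatives) and Steap4 (1.01 under no strain) also rose, and Slc22a17, a lipocalin receptor gene, fell by 0.57 under no strain. Tfrc, the transferrin receptor, was not called, with fitted values of 0.34 and 0.39.

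Among 13 iron regulation genes, 1 rose and 2 fell under strain, and 5 rose and 3 fell under no strain. The shares called were 23.1% and 61.5%, beside 12.6% and 17.8% of all genes. Hif1a rose by 0.78 and 0.98, and Epas1, which encodes HIF-2 alpha, by 0.66 under no strain. Hamp (hepcidin, the hormone that removes ferroportin from the membrane) had 0.411, 0.452, 0.0399, 0.0404 and 0.307 CPM in TD, 0.398, 0.495, 0.779 and 0.479 CPM under strain and 1.85, 1.33 and 1.53 CPM under no strain. These are 1 to 41 counts per library, and the no-strain wounds lay above all others, with a log2 fold change of 2.63 against TD (SE 0.506, edgeR adjusted p = 0.00704). Its close copy Hamp2 totalled 36 counts over the 5 TD libraries, 2 over the 4 strain libraries and 1 over the 3 no-strain libraries. Hamp totalled 30, 49 and 105 counts in the same order, so the value of either gene is uncertain where reads match both. Bmp2, a ligand that induces hepcidin, fell by 0.83 and 0.72 on the log2 scale. Hfe2 (hemojuvelin, expressed in muscle and liver) fell by 1.61 under strain, and Aco1 (iron regulatory protein 1) and Neo1 fell by 0.30 and 0.32 under no strain, calls held in 9 and 7 of 20 alternatives.

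The 14 targets of NRF2 and BACH1, factors that also control Hmox1, gave 5 higher and 0 lower under strain and 9 higher and 1 lower under no strain. That made 35.7% and 71.4% called, beside 12.6% and 17.8% of all genes. Slc7a11, the cystine importer, had 83.8 ± 45.6 CPM (SD, n = 4) under strain against 16.3 ± 4.20 in TD (SD, n = 5), a rise of 2.36 on the log2 scale. Under no strain it had 100.5 ± 13.4 CPM (SD, n = 3), a rise of 2.62. Gclm, of glutathione synthesis, rose by 0.64 and 0.94, and Prdx1, a peroxiredoxin, by 0.56 and 0.88. Txnrd1, thioredoxin reductase, rose by 0.71 under no strain, and Me1, malic enzyme and also a gene of fat cells, fell by 0.68, a call held in 9 of 20 alternatives. Tmem14c, Hif1a, Epas1, Gclm, Prdx1 and Txnrd1 kept their call under no strain in all 20 alternatives, and Spic in all 19 that gave it a value. Under strain, the muscle covariate ended the call of all 20 pathway genes, and without the second strain wound Mb, Tent5c, Sptb, Hpx, Lcn2 and Bmp2 were among those no longer called. Hpx was also lost without the second TD wound, Lcn2 without the fourth and Sptb without the first strain wound. Under no strain, Alas1, Slc22a17 and Bmp2 were not called without the first or without the third no-strain wound, and Steap4 without the third.

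Markers of several other cell types also differed between the groups, while those of others differed little. Against TD, 12.6% of all genes were called under strain and 17.8% under no strain. In each of these comparisons keratinocyte markers had 1 of 13 called, lower, and fibroblast markers 0 of 10. Summed adipocyte markers ran from 2566 to 4963 CPM in TD, 1731 to 2647 under strain and 1562 to 2057 under no strain, and 8 and 11 of 12 were lower than TD in edgeR. Summed neutrophil markers ran from 457 to 1667, 900 to 8721 and 2108 to 5188 CPM, and 9 and 7 of 11 were higher. Muscle markers ran from 6965 to 16870, 3129 to 6006 and 4525 to 9876 CPM, with 10 and 4 of 14 lower, and endothelial markers from 571 to 694, 710 to 987 and 779 to 929 CPM, with 5 and 6 of 10 higher. Macrophage markers, of the cells that recycle heme, ran from 2599 to 5569, 4848 to 7957 and 5313 to 8182 CPM, with 1 of 16 higher under strain and 2 higher and 1 lower under no strain. Hmox1 correlated with the mean of the adipocyte markers at -0.94 (within groups -0.86), with the endothelial mean at 0.81 (0.66) and with the macrophage mean at 0.63 (0.47), over 12 libraries. Fth1 correlated with the adipocyte mean at -0.88 (within groups -0.35) and with the neutrophil mean at 0.86 (-0.02). For the mean of the globins these values were 0.71 (0.50) with the adipocyte mean, -0.51 (0.02) with the neutrophil mean, -0.34 (-0.16) with the macrophage mean and 0.19 (0.43) with the muscle mean. With the endothelial mean the globin values were -0.47 (-0.45), and with the mean of the platelet markers -0.10 (-0.62). Platelet markers, of another blood cell shed into wounds, overlapped between groups at 73.8 to 89.6, 39.4 to 100.2 and 45.0 to 98.2 CPM, and 0 of 5 were called. The part of these cell types in the levels of the members was not tested. The muscle covariate cannot serve as such a test for strain against TD, because its values did not overlap between those groups.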

How the data were processed

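Poly(A) RNA of 12 wounds was sequenced. The authors deposited raw counts per gene, 1 table per library, per the file headers. The submitters' processing notes name bcl2fastq 2.17, FastQC, cutadapt, STAR, featureCounts, DESeq2 and the build GRCm38; settings, strand and annotation release are not given in the sources used here. Symbols came from GENCODE M21 (54079 of 54232 identifiers). Genes were filtered with filterByExpr (minimum count 10, total 15). All 12 libraries entered 1 edgeR 4.0.16 quasi-likelihood fit in R 4.3.3 (limma 3.58.1), scaled by TMM, with Benjamini-Hochberg adjustment over 18618 genes and a threshold of 0.05. Log2 CPM for correlations used a prior count of 2, and levels per kilobase used the length of the GENCODE transcript numbered 201. On simulated data with 200 genes changed, the fit recovered 50%, 58% and 52.5% of genes changed by 1 log2 unit. It recovered 88%, 87.8% and 89% of those changed by 2, and 4.86%, 5.26% and 8.44% of calls were false. The order of these values is strain against no strain, strain against TD and no strain against TD. The real comparisons with TD called 2349 and 3305 genes, so these rates may not carry over to them.

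Members and lists were chosen with earlier results of these data known. In each list and comparison with TD, called genes were ranked by p and at most 3 per direction were named; for strain against no strain the 2 of lowest p were named. Other genes and markers named are defining markers, partners or neighbours of members. Ftl1, Tfrc, Hmox2, Hamp2, Hbb-bh1, Blvra, Tal1 and Bnip3l were named after their values were seen. Ahsp, Tf, Hbb-b1 and Hbb-b2 were not analysed here. Some genes that these rules name are not reported here. Alternatives were DESeq2 size factors, library totals, DESeq2 1.42.0, no filter, a mean of 5 CPM, only the groups compared, the title letter or muscle markers as a covariate, and leaving out each library. Replicate numbers follow accession order and are only names.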

Additional observations from a re-analysis of the deposited data

How the results depend on the processing

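Of 597 recomputed log2 fold changes of members, 587 lay within 1 SD of the value given and 10 moved further, each with the muscle covariate. Members called against TD kept their direction in all. DESeq2 called 33 genes between strain and no strain, 4 of them members. For strain against TD, where 2349 genes, 20 pathway genes and 1 member were called, no filter gave 1527 genes, the title letter 798 genes, 11 pathway genes and 0 members, the muscle covariate 1 gene, 0 pathway genes and 0 members, and DESeq2 2 members. For no strain against TD, with 3305, 35 and 8, the title letter gave 2145 genes and 5 members, and the muscle covariate 676 genes, 12 pathway genes and 1 member. The cause was not tested. Leaving out 1 library gave 882 to 2458 genes, 9 to 22 pathway genes and 1 to 2 members for strain against TD, and 1505 to 3415, 18 to 36 and 3 to 8 for no strain against TD. It gave 0 throughout for strain against no strain. Scaling by library totals moved no strain against TD from 52.7% higher (1741 higher, 1564 lower) to 38.1% higher (1257 higher, 2046 lower), and every called member kept its direction. No paired analysis was possible because the title numbers do not repeat across groups. Alas2 had no value under the filter at a mean of 5 CPM. Depth limited Alas2, Hamp and the red cell markers, which rest on few counts.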
